A study of Mus musculus with 2 samples.

Results

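Glutathione transferases and antioxidant enzymes were followed in whole mammary gland from C57BL/6 mice aged 6 postnatal weeks. The members were taken by gene symbol: the transferases of the alpha, mu, pi, theta, kappa, omega, zeta and microsomal classes, the glutathione peroxidases, peroxiredoxins, superoxide dismutases, thioredoxins and thioredoxin reductases, catalase, the haem oxygenases Hmox1 and Hmox2, the quinone reductase Nqo1, and the genes of glutathione synthesis and recycling. They came to 56 of the 21113 genes in the deposited tables, and the rule uses symbols and no measured value, although the set was proposed with earlier results of these data known. Their level was read from 1 library of ILN/ILN glands, homozygous for a cassette (IRES-LacZ-Neo) inserted at the shared gene locus of 2 microRNAs, miR-212 and miR-132, and 1 library of wild-type glands. The ILN/ILN library held 42953129 sequenced fragments in genes and the wild-type library 46133338. The sources used here do not say how many animals gave tissue to a library, and neither microRNA was analysed here, which leaves the genotype without a check in these values.

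Reactive oxygen species are cleared in steps. Superoxide dismutases turn superoxide into hydrogen peroxide, and catalase, the glutathione peroxidases and the peroxiredoxins reduce peroxides, drawing on glutathione or thioredoxin that NADPH-dependent reductases restore. Glutathione transferases join glutathione to reactive lipids and foreign compounds, and the transcription factor Nrf2 (gene Nfe2l2), held down by Keap1, drives many of these genes through a DNA motif called the antioxidant response element. Adipocytes, which make up most of the young mammary fat pad by volume, use these enzymes against lipid peroxides.

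The glands carried the markers of fat in both libraries, but luminal epithelial markers were close to 0 in the ILN/ILN library. Fabp4, the fatty acid binding protein of adipocytes, had a value of 39645 in the ILN/ILN library and 40797 in the wild-type library, on the deposited scale for gene length and library size (an FPKM-like value, called a value from here on). Of 13 luminal epithelial markers in the table, 5 were at 0 in the ILN/ILN library and 1 in the wild-type library, and their summed values were 1.55 in ILN/ILN and 47.9 in wild type. With 1 library for each genotype no test could be made, and intervals in parentheses are 95% intervals for counting error alone. In whole tissue, fewer cells of a type and less RNA per cell cannot be told apart.

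Matches to the seed of the 2 microRNAs and to the motif of Nrf2 were looked for in these genes. The 3p strands of both microRNAs share the seed, bases 2 to 8, given in capitals in the mature sequences from RefSeq (GRCm38.p6, plus strand of chromosome 11, at chr11:75173723-75173744 and chr11:75173443-75173464).
miR-132-3p: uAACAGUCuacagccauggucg
miR-212-3p: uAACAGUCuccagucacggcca
The complement of this seed was looked for in the 3' untranslated region (the longest in GENCODE M21) of the 47 measured members, meaning those that reached a value of 1 in the ILN/ILN or the wild-type library. A match to bases 2 to 8, or to bases 2 to 7 followed by an A, was present in 2 of these 47 members (4.26%), against 20.3% of 11341 measured genes of the table. The median length searched was 557 bases in members and 1130 bases in all these genes. The members with a match were Sod2, the mitochondrial superoxide dismutase on chromosome 17, and Txnrd1, the cytosolic thioredoxin reductase on chromosome 10. The matches are in capitals below, and the sequences are shown because such a match is what the seed of a microRNA pairs with. Sod2 had 4 matches, of which 2 close neighbours are given with their start in the region.
Sod2 at base 2806 of 4963: ttgttttgagtGACTGTTAgtattcttgaa
Sod2 at base 2826 of 4963: tattcttgaatACTGTTAgacctgacagg
Txnrd1 at base 1399 of 1667: ccaagggagttGACTGTTcagttttattt
Sod2 had a value of 63.4 in the ILN/ILN library and 64.0 in the wild-type library, a fragment ratio of 0.991 (0.965 to 1.02). Txnrd1 had 16.7 in ILN/ILN and 16.1 in wild type, a ratio of 1.03 (0.977 to 1.10). Neither member with a seed match was separated between the libraries beyond counting error. Among the 11341 measured genes, the 2298 with a match had a median log2 ratio of (value + 1) of 0.055, ILN/ILN over wild type. The genes without a match had 0.002, and this difference was not tested. A longer region has more places for a match, and the lengths of genes with and without a match were not compared.

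The core of the antioxidant response element, TGACNNNGC, was searched on both strands in RefSeq promoter windows (GRCm38.p6) of 250 bases before to 50 bases after each start. At least 1 match was found in 8 of the 47 members with a window, which is 17.0%, near the 15.2% of all 16436 genes with one. Hmox1, Gclc, Gsr, Gsta4, Gstt2, Prdx6, Sod3, Gpx2-ps1 and Prdx6-ps1 had no window and were not searched. Bases farther than 250 before a start were not searched in any gene, so the shares do not cover distant elements. The 8 with a match were Gclm, Gsta3, Gstm5, Gstm7, Mgst1, Prdx1, Sod1 and Txnrd1. The bases before the start are shown for 3 of them, as members from 3 roles whose ratios lay on different sides of 1, with the match in capitals. A match is a run of letters and not a shown binding site.
Prdx1, plus strand, chr4:116685349-116685598: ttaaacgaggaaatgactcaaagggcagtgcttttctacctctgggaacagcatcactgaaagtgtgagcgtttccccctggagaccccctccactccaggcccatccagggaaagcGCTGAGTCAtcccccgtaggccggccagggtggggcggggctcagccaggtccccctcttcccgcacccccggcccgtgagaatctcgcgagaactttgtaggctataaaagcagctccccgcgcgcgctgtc
Gclm, plus strand, chr3:122245307-122245556: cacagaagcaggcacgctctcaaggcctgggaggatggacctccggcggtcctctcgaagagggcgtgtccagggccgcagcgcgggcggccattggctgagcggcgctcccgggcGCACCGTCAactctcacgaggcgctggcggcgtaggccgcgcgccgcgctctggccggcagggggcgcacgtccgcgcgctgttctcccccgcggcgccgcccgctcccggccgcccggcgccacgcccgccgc
Gstm5, plus strand, chr3:107895604-107895853: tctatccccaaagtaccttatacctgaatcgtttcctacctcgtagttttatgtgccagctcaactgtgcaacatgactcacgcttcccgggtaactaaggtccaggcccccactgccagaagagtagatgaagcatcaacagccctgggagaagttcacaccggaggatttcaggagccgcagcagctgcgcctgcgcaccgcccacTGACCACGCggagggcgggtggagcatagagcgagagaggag
Prdx1 had a fragment ratio of 1.02 (0.982 to 1.06), Gclm of 0.905 (0.817 to 1.004) and Gstm5 of 0.832 (0.794 to 0.872), ILN/ILN over wild type. Among measured members the median log2 ratio of (value + 1) was 0.00 in the 8 with a match and -0.02 in the 32 without one.

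Antioxidant genes were strongly expressed in both glands. Among the 47 measured members the median value was 92.2 in the ILN/ILN library and 91.6 in the wild-type library, against medians of 8.74 in ILN/ILN and 8.76 in wild type over all 11556 measured genes. A value of at least 100 was reached by 21 members in ILN/ILN and 23 in wild type, while 7.76% of all measured genes reached it in ILN/ILN and 7.59% in wild type. The highest values in ILN/ILN were 2035 for Gpx4, which reduces lipid peroxides in membranes, 2019 for Sod1, the cytosolic superoxide dismutase, and 1665 for Mgst1, the microsomal transferase. Gpx3, the secreted peroxidase of plasma, came next at 1338. In wild type the highest were Gpx4 at 2469, Sod1 at 1931, Gpx3 at 1733 and Mgst1 at 1693, so Gpx3 stood above Mgst1 there and below it in ILN/ILN. Ranks moved by at most 3 places between the libraries, and log2(value + 1) had a Pearson's r of 0.997 across the 47 members, which share libraries and are not independent replicates. The members together took 1.41% of the fragments in ILN/ILN and 1.47% in wild type.

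**Figure D1:**
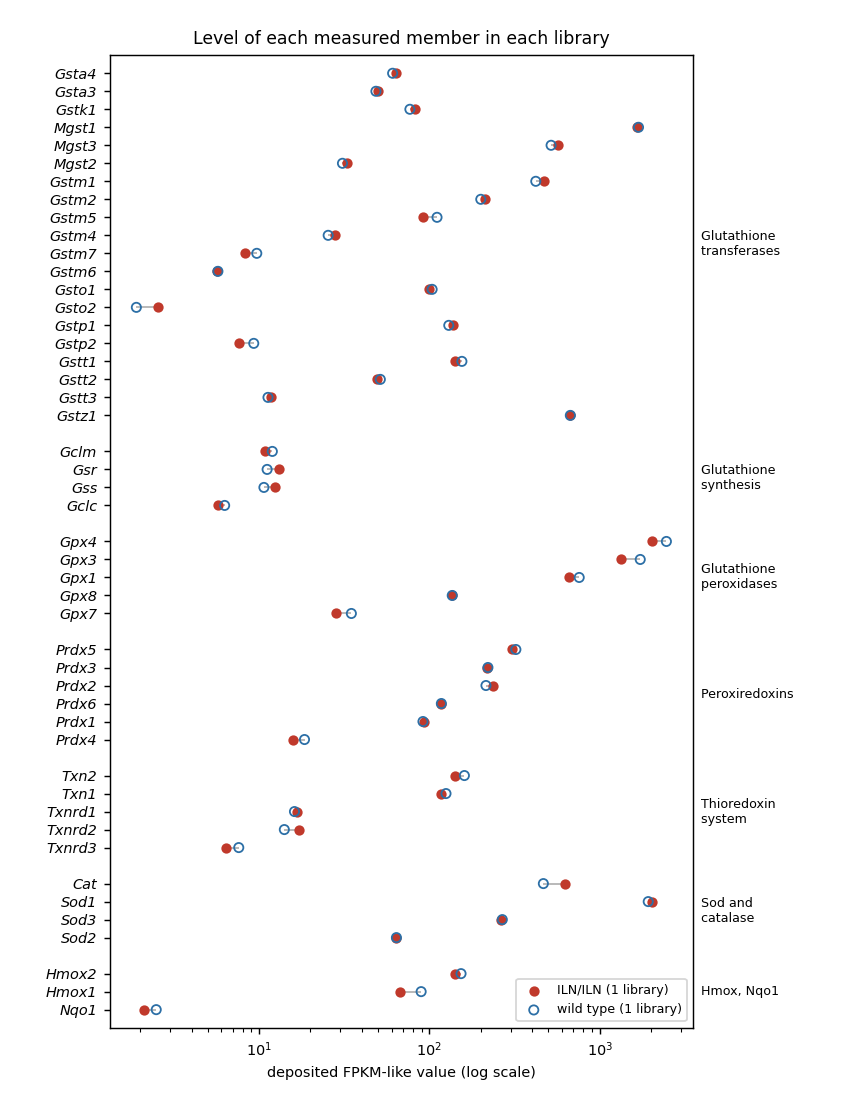
Deposited FPKM-like value (log scale) of each of the 47 measured members in the ILN/ILN library (filled red) and the wild-type library (open blue), grouped by role and ordered by class and level. The lowest point is Nqo1 in ILN/ILN, at 2.10, and Gsto2 in wild type, at 1.896, and the highest in both libraries is Gpx4, at 2035 in ILN/ILN and 2469 in wild type.

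The comparison of genotypes asked which of these genes differed in level in the gland with the inserted locus. No measured member was 1.5-fold higher in the ILN/ILN library on the (value + 1) scale, where 1.9% of all measured genes were, and none was 1.5-fold lower, where 5.39% were. None was 2-fold apart, against 0.407% of all measured genes higher and 1.72% lower. The median log2 ratio was -0.016 in members and 0.015 in all measured genes, with the middle 50% of members between -0.15 and 0.08 and that of all genes between -0.16 and 0.16. At a lower threshold of 1.2-fold, chosen after the values were seen, 3 members were higher (Cat, Gsto2 and Txnrd2), against 13.1% of all measured genes, and 4 were lower (Hmox1, Gpx3, Gpx7 and Gpx4), against 16.5%. Gstm5 lay just outside, with a log2 ratio of -0.26. Counting error is small at these levels: the interval of the fragment ratio lay above 1 in 12 members and below 1 in 16, while it lay above 1 in 33.1% and below 1 in 29.2% of all measured genes. Such intervals compare these 2 libraries and not the genotypes.

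**Figure D2:**
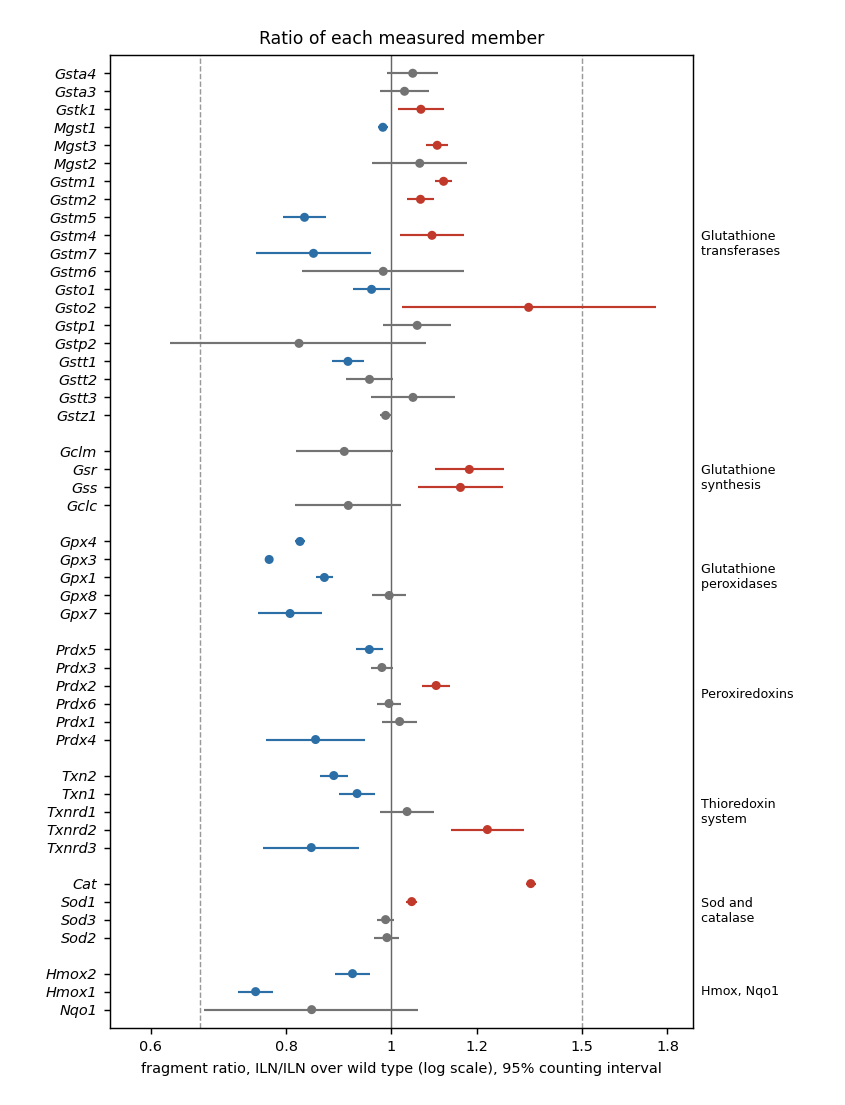
Fragment ratio of each measured member, ILN/ILN over wild type (log scale), with its 95% counting interval, red where the interval lies above 1, blue where it lies below 1 and grey where it includes 1. Dashed lines mark 1.5-fold either way, and every point lies between them, from 0.750 for Hmox1 to 1.35 for Cat.

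Among the first enzymes of the chain, catalase stood apart from the dismutases. Cat, which breaks down hydrogen peroxide in peroxisomes, had a value of 629 in the ILN/ILN library and 467 in the wild-type library, from 70422 fragments in ILN/ILN and 56192 in wild type. Its fragment ratio was 1.35 (1.33 to 1.36), the highest among measured members. Sod1 had 2019 in ILN/ILN and 1931 in wild type, a ratio of 1.04 (1.03 to 1.06). The mitochondrial enzyme Sod2 is given above, and Sod3, the dismutase of the extracellular matrix, had 265 in ILN/ILN and 268 in wild type, a ratio of 0.989 (0.971 to 1.01). All 3 dismutases thus lay within 1.05-fold between libraries. Cat is abundant in red blood cells and adipocytes. Beside its ratio, the 7 red blood cell markers summed to values of 6701 in ILN/ILN and 14463 in wild type. Of these markers 2 were at 0 in ILN/ILN and none in wild type. Of 9 white adipocyte markers 6 were higher in ILN/ILN, with a median log2 ratio of 0.10. However, the 9 summed to 77014 in ILN/ILN and 86071 in wild type. Of 4 measured brown adipocyte markers 2 were higher in ILN/ILN and 2 lower. The part of red cells and of fat cells in the ratio of Cat was not tested.

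The glutathione peroxidases were the role group with the lowest median ratio. In all 5 measured members the value was lower in ILN/ILN than in wild type, with a median log2 ratio of -0.28, and the interval lay below 1 in 4 of them. Gpx3 had 1338 in the ILN/ILN library and 1733 in the wild-type library, a ratio of 0.772 (0.765 to 0.779). Gpx4 had 2035 in ILN/ILN and 2469 in wild type, a ratio of 0.824 (0.815 to 0.833). These enzymes differ in place, since Gpx3 is secreted and Gpx4 acts on membranes inside the cell. Gpx1, the main cytosolic peroxidase, had 659 in ILN/ILN and 759 in wild type, a ratio of 0.868 (0.853 to 0.883). Gpx7, a peroxidase of the endoplasmic reticulum, had 28.1 in ILN/ILN and 34.8 in wild type, a ratio of 0.807 (0.753 to 0.864). Gpx8, of the same compartment, was at 136 in both libraries, with a ratio of 0.996 (0.961 to 1.03). The group summed to 4196 in ILN/ILN and 5132 in wild type, which was 32.0% of the summed value of all members in ILN/ILN and 37.2% in wild type. Gpx1, Gpx3, Gpx4 and Gpx7 stayed lower under the other scalings, which could not have turned their direction. Those scalings multiply every ILN/ILN value by a factor below 1, 0.998 for the median ratio and 0.989 for the upper quartile.

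Gpx1, Gpx3 and Gpx4 carry selenocysteine, as do the thioredoxin reductases, and a list of 11 measured selenium genes held both the makers of selenoproteins and other selenoproteins. Of the 8 genes of selenocysteine synthesis, insertion and recycling, 6 had a log2 ratio above 0 and 2 below. The interval of the fragment ratio lay above 1 in only 2 of these 8 and below 1 in 1. The other 3 genes, named after their values were seen, are selenoproteins outside these 8. All 3 had a fragment ratio and interval below 1, as Gpx1, Gpx3 and Gpx4 did. So did Gpx7, which is not among the selenocysteine members, with a ratio of 0.807 (0.753 to 0.864). Sephs2, counted among the 8, is itself a selenoprotein and had a ratio and interval above 1. Sepp1, the selenium carrier of plasma, had 851 in the ILN/ILN library and 965 in the wild-type library, a ratio of 0.881 (0.873 to 0.890). Sepw1 had a ratio of 0.939 (0.920 to 0.960) and Sepn1 of 0.903 (0.854 to 0.954). None of the 11 was past 1.5-fold on either scale, and their median log2 ratio was 0.04. Sephs2, which makes the selenium donor, had 54.5 in the ILN/ILN library and 38.9 in the wild-type library, a ratio of 1.401 (1.34 to 1.46). Sepsecs, which places selenium on its transfer RNA, had 6.11 in ILN/ILN and 4.53 in wild type, and Scly, which recycles selenium from selenocysteine, had 9.19 in ILN/ILN and 11.3 in wild type. Among the 6 measured selenocysteine members, Txnrd1 and Txnrd2 had ratios above 1 and the other 4 below it.

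Hmox1 had the lowest ratio among measured members. It encodes the inducible haem oxygenase, which breaks down haem and is abundant in macrophages that take up red cells. Its value was 67.1 in the ILN/ILN library and 89.4 in the wild-type library, from 4727 fragments in ILN/ILN and 6771 in wild type, a ratio of 0.750 (0.722 to 0.778). The constitutive Hmox2 had 141 in ILN/ILN and 153 in wild type, a ratio of 0.921 (0.888 to 0.956). Nqo1, a quinone reductase often used as a readout of Nrf2, was among the lowest measured members, with 2.10 in ILN/ILN and 2.48 in wild type, and its ratio of 0.845 (0.672 to 1.06) was within counting error of 1. All 8 macrophage markers were lower in ILN/ILN, 4 of them past 1.5-fold, against 5.39% of all measured genes. They summed to 1289 in ILN/ILN and 1975 in wild type, with a median log2 ratio of -0.55. Markers of luminal epithelium, red blood cells, B cells, T cells and neutrophils had lower medians than that. None of the 8 was at 0. The part of macrophages and of red cells in the values of Hmox1, Gpx1 and Gpx3 was not tested.

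Peroxiredoxins, thiol peroxidases that draw on thioredoxin, were close in the 2 glands. The 6 measured members summed to 987 in the ILN/ILN library and 985 in the wild-type library, and their median log2 ratio was -0.016. Prdx5, found in mitochondria and peroxisomes, was the highest, with 308 in ILN/ILN and 322 in wild type. Prdx2, the peroxiredoxin of red cells and many tissues, had 237 in ILN/ILN and 215 in wild type, a ratio of 1.10 (1.07 to 1.13). The part of red cells in the ratio of Prdx2 was not tested. Prdx4, the peroxiredoxin of the endoplasmic reticulum, was the lowest in level, with 15.7 in ILN/ILN and 18.4 in wild type, a ratio of 0.852 (0.767 to 0.946). Prdx1, Prdx3, of mitochondria, and Prdx6, which also acts on phospholipids, had ratios between 0.981 and 1.02, with intervals that included 1. Srxn1, the sulfiredoxin that repairs overoxidised peroxiredoxins, is not a member and had 13.6 in ILN/ILN and 10.5 in wild type, a ratio of 1.29 (1.201 to 1.395).

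In the thioredoxin system both thioredoxins were slightly lower and the reductases differed among themselves. Txn2, the mitochondrial thioredoxin, had 142 in the ILN/ILN library and 160 in the wild-type library, a ratio of 0.885 (0.859 to 0.913). The cytosolic Txn1 had 116 in ILN/ILN and 125 in wild type, a ratio of 0.930 (0.896 to 0.966). The reductases, which restore thioredoxin with NADPH, were lower in level than the thioredoxins. Txnrd2, the mitochondrial one, had 17.2 in ILN/ILN and 14.0 in wild type, a ratio of 1.23 (1.14 to 1.33), so Txn2 and its reductase lay on opposite sides of 1. Txnrd3, a reductase with an added glutaredoxin domain best known from testis, had 6.40 in ILN/ILN and 7.58 in wild type, a ratio of 0.844 (0.762 to 0.934).

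The genes that make and recycle glutathione had the lowest summed value of the role groups, at 42.0 in the ILN/ILN library and 40.0 in the wild-type library. Gclc and Gclm, the catalytic and modifier subunits of the rate-limiting ligase, had 5.72 and 10.8 in ILN/ILN and 6.26 and 11.9 in wild type, with ratios of 0.913 (0.816 to 1.02) and 0.905 (0.817 to 1.004). Gss, which completes the tripeptide, had 12.3 in ILN/ILN and 10.7 in wild type, a ratio of 1.16 (1.06 to 1.27). Gsr, the reductase that returns oxidised glutathione to its thiol form, had 13.1 in ILN/ILN and 11.1 in wild type, a ratio of 1.18 (1.10 to 1.27). The second step and the recycling step were thus higher in ILN/ILN beyond counting error, while the ligase subunits were not separated from 1.

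**Figure D3:**
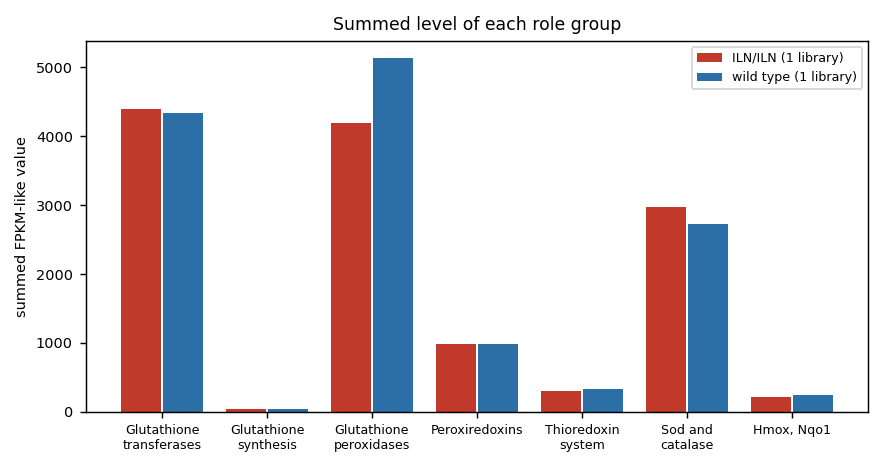
Summed FPKM-like value of the members in each role group, ILN/ILN (red) left of wild type (blue), 1 library each with no error bars because there are no replicates. Glutathione peroxidases summed to 4196 in ILN/ILN and 5132 in wild type, and glutathione transferases to 4400 in ILN/ILN and 4339 in wild type.

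Glutathione transferases had the most members, with 20 of 24 measured, 11 with a log2 ratio above 0 and 9 below, and a median of 0.05. Their summed value was 4400 in the ILN/ILN library and 4339 in the wild-type library. By summed value the microsomal transferases were the highest class. Mgst1, which protects membranes from lipid peroxides, had 1665 in ILN/ILN and 1693 in wild type, a ratio of 0.983 (0.972 to 0.993), and was 37.8% of the summed transferase value in ILN/ILN and 39.0% in wild type. Mgst3 had 573 in ILN/ILN and 519 in wild type, a ratio of 1.10 (1.08 to 1.13), and Mgst2, which can also make leukotriene C4, had 32.8 in ILN/ILN and 30.8 in wild type. Gstz1, which isomerises maleylacetoacetate in tyrosine breakdown, had 666 in ILN/ILN and 673 in wild type, a ratio of 0.989 (0.976 to 1.001).

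The mu class, whose genes lie in a cluster on chromosome 3, split in direction. Gstm1, its main member, had 472 in the ILN/ILN library and 422 in the wild-type library, a ratio of 1.12 (1.10 to 1.14). Gstm2 had 213 in ILN/ILN and 200.4 in wild type, and Gstm4 had 27.7 in ILN/ILN and 25.4 in wild type, with ratios of 1.06 and 1.09. Gstm5 went the other way, with 92.2 in ILN/ILN and 111 in wild type, as did Gstm7, with 8.21 in ILN/ILN and 9.67 in wild type and a ratio of 0.848 (0.750 to 0.959). Gstm6 was at 5.62 in ILN/ILN and 5.72 in wild type. Gstm1 took 57.6% of the summed mu class value in ILN/ILN and 54.5% in wild type, and Gstm5 11.3% in ILN/ILN and 14.3% in wild type. These paralogs are alike in sequence and no source used here tells how reads with several matches were treated, so the split between them is uncertain.

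In the other classes the lowest ratio was that of Gstp2 and the highest that of Gsto2, both from few fragments. Gsta4, which conjugates the lipid aldehyde 4-hydroxynonenal, had 63.7 in the ILN/ILN library and 60.8 in the wild-type library, and Gsta3 had 49.9 in ILN/ILN and 48.5 in wild type, with intervals that included 1. Gstp1 had 137 in ILN/ILN and 130 in wild type, a ratio of 1.06 (0.984 to 1.14), and its near copy Gstp2 had 98 fragments in ILN/ILN and 128 in wild type, a ratio of 0.822 (0.626 to 1.08). The deposited length was 243 bases for Gstp1 and 284 for Gstp2, which is 29.6% and 35.6% of the longest GENCODE transcript of each, against a median of 92.2% over measured genes, so their levels rest on short stretches. Gstt1, of the theta class, had 142 in ILN/ILN and 155 in wild type, a ratio of 0.912 (0.882 to 0.944), while Gstt2 and Gstt3 had intervals that included 1. Gstk1, the kappa enzyme of mitochondria and peroxisomes, had 81.9 in ILN/ILN and 76.8 in wild type, a ratio of 1.07 (1.01 to 1.12). Gsto1, of the omega class, had 99.6 in ILN/ILN and 104 in wild type, a ratio of 0.959 (0.923 to 0.997), and its neighbour Gsto2 had 126 fragments in ILN/ILN and 101 in wild type, a ratio of 1.34 (1.02 to 1.76).

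The remaining 9 members stayed under a value of 1 in both libraries. Gstm3, Gpx5, Gpx6 and Prdx6-ps1 had 0 fragments in both, where 3 fragments is the limit that a count of 0 allows. Gpx2, the peroxidase of gut epithelium, had 0 fragments in ILN/ILN and 3 in wild type, and Gsta1 had 0 in ILN/ILN and 2 in wild type. Gsta2 had 1 fragment in ILN/ILN and 9 in wild type, a ratio of 0.119 (0.00272 to 0.861), and the pseudogene Gpx2-ps1 had 6 in ILN/ILN and 2 in wild type, a ratio of 3.22 (0.576 to 32.6). Gstt4, a theta transferase next to Gstt1 on chromosome 10, had 30 fragments in ILN/ILN and 5 in wild type, a ratio of 6.44 (2.48 to 21.3). It is the member with the most unequal counts whose interval lies above 1, at values of 0.746 in ILN/ILN and 0.116 in wild type.

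The regulators of Nrf2 and its other responsive genes were set beside the members. Nfe2l2 had 36.5 in the ILN/ILN library and 34.8 in the wild-type library, a ratio of 1.05 (1.003 to 1.10), and Keap1 was at 18.4 in both, a ratio of 1.001 (0.947 to 1.06). Of 9 measured regulators 8 had a log2 ratio above 0, with a median of 0.08 and none past 1.5-fold. Maff, a small partner of Nrf2, had 3.55 in ILN/ILN and 2.57 in wild type, and Nfe2l1, a relative of Nrf2, had 139 in ILN/ILN and 119 in wild type. Of 14 other responsive enzymes and transporters 7 were above 0 and 7 below, and only Aldh3a1 passed 1.5-fold. This aldehyde dehydrogenase had 20.8 in ILN/ILN and 0.347 in wild type, a ratio of 60.0 (40.5 to 93.0). Of the members, Nqo1, Gclm and Txnrd1 had intervals that included 1. Hmox1 had a ratio of 0.750 (0.722 to 0.778), below 1. Abcc4, an efflux pump, had 1.52 in ILN/ILN and 2.12 in wild type.

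Genes that supply NADPH were close, with a median log2 ratio of 0.03 over 13 measured genes and none past 1.5-fold. Me1, the cytosolic malic enzyme, had 334 in the ILN/ILN library and 285 in the wild-type library, Idh1, the cytosolic isocitrate dehydrogenase, 66.1 in ILN/ILN and 58.1 in wild type, and Pgls, of the pentose phosphate pathway, 82.6 in ILN/ILN and 99.0 in wild type. Genes that take apart glutathione outside the cell included the 2 that passed 1.5-fold downward among 12 measured genes of glutathione turnover. Ggt5, a gamma-glutamyl cleaving enzyme, had 12.5 in ILN/ILN and 21.3 in wild type, a ratio of 0.585 (0.556 to 0.616). Dpep1, a dipeptidase, had 105 in ILN/ILN and 168 in wild type, a ratio of 0.621 (0.606 to 0.636). Cth, which makes cysteine, had 2.58 in ILN/ILN and 3.15 in wild type, and the median of the list was -0.06.

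Producers of superoxide and peroxide had a median log2 ratio of -0.23, with 4 of 10 measured genes above 0 and 6 below. Ncf1, a subunit of the phagocyte oxidase, was the lowest of them: it had 21.4 in the ILN/ILN library and 35.9 in the wild-type library, a ratio of 0.595 (0.566 to 0.624), and was the only one past 1.5-fold on the (value + 1) scale. By fragments Noxo1, an organiser of another NADPH oxidase named after its values were seen, was past 1.5-fold the other way, at 1.39 in ILN/ILN and 0.885 in wild type, a ratio of 1.57 (1.198 to 2.07). Ncf4, of the phagocyte oxidase like Ncf1, had 6.93 in ILN/ILN and 9.86 in wild type. Beside them, all 7 neutrophil markers were lower, with summed values of 66.9 in ILN/ILN and 326 in wild type, and so were the macrophage markers given above. Lymphocyte markers were lower too, all 8 of B cells and all 8 of T cells past 1.5-fold, against 5.39% of all measured genes. The B cell markers summed to 37.6 in ILN/ILN and 212 in wild type, and the T cell markers to 25.2 in ILN/ILN and 73.8 in wild type. The part of these cells in the values of the oxidase genes, peroxidases and Hmox1 was not tested. Partners of thioredoxin had a median of -0.04 over 20 genes with none past 1.5-fold on the (value + 1) scale. By fragments Nxn, nucleoredoxin, was past it, at 2.63 in ILN/ILN and 4.15 in wild type, a ratio of 0.632 (0.548 to 0.728). The sestrins differed in direction, with Sesn1 at 16.4 in ILN/ILN and 24.2 in wild type and Sesn2 at 8.75 in ILN/ILN and 6.30 in wild type. Of 6 metal chaperones and metallothioneins 5 were below 0 by value and 4 by fragments. Cp, a copper ferroxidase named after its values were seen, turned with the measure, at 78.5 in ILN/ILN and 86.1 in wild type but with a fragment ratio of 1.15 (1.10 to 1.203), and its deposited value did not come from these fragments. Among metallothioneins, Mt2 was at 162 in ILN/ILN and 224 in wild type and Mt1 at 409.6 in ILN/ILN and 512 in wild type, while Mt3 had 22 fragments in ILN/ILN and 16 in wild type.

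**Figure D4:**
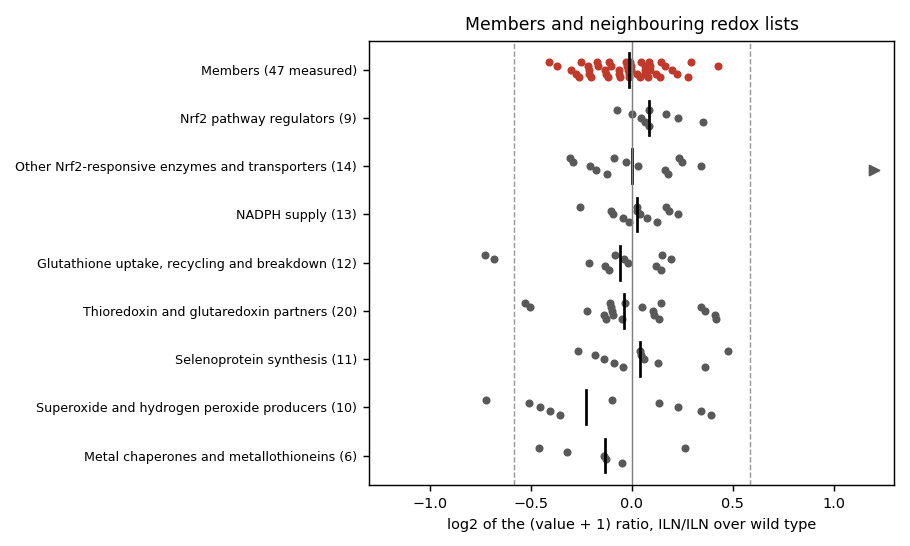
Log2 ratio of (value + 1), ILN/ILN over wild type, for the measured members (red) and for the genes of 8 neighbouring lists (grey), with the number measured in parentheses, a black bar at each median and dashed lines at 1.5-fold. The arrow stands for Aldh3a1, beyond the axis at 4.02, and the members show no point past the dashed lines.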

How the data were processed

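Total RNA from mammary glands was selected for poly(A), fragmented and copied with random hexamers and dUTP, per the labels' protocols, and each sample was run on 2 lanes. Per the submitters' processing notes, mm9, bedtools, TopHat 1.4.1 and Bowtie 0.12.3 were used. No source used here names the program behind the gene tables, its annotation, its use of strand or its handling of multiple matches. The authors deposited, per the file headers, an FPKM-like value, its log2 form (log2 of the value + 1) and the signal per kilobase from which the value is scaled. Multiplied by the deposited length, the signal gave whole numbers (tolerance 0.01) for 100% of genes above 0, and these are called fragments. In all 56 members the final value came from these fragments.

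Ratios with intervals (exact conditional Clopper-Pearson, 95%) are fragments scaled by library totals. They cover counting error only, since fragments are not independent molecules. A count of 0 allows 3 fragments, 0.0698 per 1000000 in the ILN/ILN and 0.0650 in the wild-type library. Log2 ratios use a pseudocount of 1 on deposited values, which understates the change of low genes. Measured genes reached a value of 1 in the ILN/ILN or the wild-type library, and 1.5-fold stands in for a call, with no test at 1 library per genotype. Members were matched by symbol (a prefix and a digit at the start of the name, which admits Gpx2-ps1 and Prdx6-ps1). All measured members could be named, and from each other list the 3 with the largest ratio, besides Nfe2l2 and Keap1. Sums are over members in the table. Members, lists and thresholds were chosen with earlier results of these data known. Gene coordinates are not given because mm9 differs from the reference. All 56 members matched RefSeq (GRCm38.p6) by gene identifier, 47 had a promoter window and 55 a 3' untranslated region. Only the ratio intervals were tested on simulated data, with independent counts, which real fragments are not. The symbol rule was checked on chosen names. Python 3.11.15, numpy 2.4.6, pandas 2.3.3 and scipy 1.17.1 were used. Alternatives covered pseudocount, minimum, estimate, scaling and threshold.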

Additional observations from a re-analysis of the deposited data

How the results depend on the processing

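No measured member was past 1.5-fold either way with a pseudocount of 0.1 or 5, a minimum of 5, fragments from the original estimate, either other scaling, or a threshold of 2-fold. With no minimum 1 of 52 members above 0 was past 1.5-fold upward, Gstt4. The share over all 16444 genes of that setting was not computed. With the 1.2-fold threshold, chosen after seeing the data, 3 were higher and 4 lower. The median log2 ratio of members was -0.032 with scaling by the upper quartile, which by construction lowers every ILN/ILN value by the factor 0.989, and between -0.019 and -0.016 in the other settings. No member changed sign, but a pseudocount, minimum or threshold cannot change a sign. The original estimate is what the members' values already come from. The scalings changed ILN/ILN values only by the factors 0.998 and 0.989, so little could have turned. Depth limits the members under a value of 1. With 1 library per genotype, differences between animals or dissections have no estimate. No paired analysis was possible because each genotype has 1 library.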
